A study of Mus musculus with 34 samples.

Results

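The liver genes Gskip, Gucy2c, Mmd2, Kif26b and Il13ra1 were chosen by their response at 24 hours after partial hepatectomy (PHx), which separated SIRT1intKO mice from wild-type (WT) mice. Gskip had risen only in SIRT1intKO livers and the other 4 were higher in WT livers. They are 5 of 78298 genes in the deposited table and 5 of the 14980 genes with enough reads to test. Bulk RNA sequencing had been run on 34 livers of male mice aged 8 to 12 weeks on a C57/Bl6 background. In SIRT1intKO mice, Cre under the Villin promoter deleted Sirt1, whose exon 4 was flanked by loxP sites, in gut epithelial cells, and WT mice were littermates with the floxed gene and no Cre. At 6 or 24 hours, mice had undergone removal of 70% of the liver (the left lateral and median lobes), whereas 0-hour livers were untreated. There were 6, 6 and 4 WT livers and 6, 5 and 7 SIRT1intKO livers at 0, 6 and 24 hours, each from a separate mouse by the labels. The 0-hour livers had no sham surgery and were numbered in a series of their own, so PHx, surgery itself and any difference in handling cannot be told apart.

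The 5 genes belong to different pathways. Gskip (ENSMUSG00000044715) encodes a small protein that binds glycogen synthase kinase 3 beta and anchors protein kinase A through its regulatory subunits, which brings both kinases together. Gucy2c (ENSMUSG00000042638) encodes guanylate cyclase C, the receptor for guanylin and uroguanylin that makes cyclic GMP and is best known from intestinal epithelium, where it governs salt and water secretion. Mmd2 (ENSMUSG00000039533), also called Paqr10, encodes a Golgi protein of the progestin and adipoQ receptor family that takes part in Ras signaling at the Golgi. Kif26b (ENSMUSG00000026494) encodes an atypical kinesin that acts downstream of Wnt5a and the Ror receptors in cell migration and kidney development. Il13ra1 (ENSMUSG00000017057) encodes the chain that pairs with Il4ra to form the type II receptor for interleukin 4 and interleukin 13, which signals through Janus kinases to STAT6.

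The promoters of the 4 genes with an entry in the RefSeq table (build GRCm38.p6) are shown because Gskip moved against the other 3 at 24 hours. Each is the 250 bases before the gene's start, 5′ to 3′ on the strand of the gene, and capitals mark matches to the motifs searched. The deposited counts were made on GRCm39, so these positions belong to the sequence table and not to the counts. Gskip lies at chr12:105685102-105685351 on the plus strand, Mmd2 at chr5:142608753-142609002 on the minus strand, Kif26b at chr1:178528875-178529124 on the plus strand and Il13ra1 at chrX:36111858-36112107 on the plus strand.
Gskip: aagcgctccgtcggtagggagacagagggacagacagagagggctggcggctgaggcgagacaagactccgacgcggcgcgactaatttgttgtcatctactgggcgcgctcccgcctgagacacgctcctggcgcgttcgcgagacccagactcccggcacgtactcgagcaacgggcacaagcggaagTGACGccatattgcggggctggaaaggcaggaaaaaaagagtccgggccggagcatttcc
Mmd2: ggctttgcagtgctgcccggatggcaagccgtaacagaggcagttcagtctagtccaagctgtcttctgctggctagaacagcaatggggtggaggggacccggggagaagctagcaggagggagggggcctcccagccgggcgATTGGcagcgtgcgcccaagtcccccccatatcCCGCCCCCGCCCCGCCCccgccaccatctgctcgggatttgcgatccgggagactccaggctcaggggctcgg
Kif26b: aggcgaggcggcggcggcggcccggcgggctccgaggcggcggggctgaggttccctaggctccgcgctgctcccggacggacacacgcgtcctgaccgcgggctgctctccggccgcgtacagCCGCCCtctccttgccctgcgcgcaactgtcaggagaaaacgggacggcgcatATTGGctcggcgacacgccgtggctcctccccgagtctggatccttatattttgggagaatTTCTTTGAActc
Il13ra1: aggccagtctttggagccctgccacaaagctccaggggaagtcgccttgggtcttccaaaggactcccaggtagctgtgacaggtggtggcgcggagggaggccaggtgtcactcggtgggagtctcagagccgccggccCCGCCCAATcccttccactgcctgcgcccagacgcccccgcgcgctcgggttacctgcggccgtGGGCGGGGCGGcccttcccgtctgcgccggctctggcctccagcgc

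All 4 windows were rich in G and C, with 62.8% of bases in Gskip, 67.2% in Mmd2, 68.4% in Kif26b and 70.8% in Il13ra1. In all, 8 motifs were searched on both strands: the GC box (GGGCGG), the CCAAT box (CCAAT), the cAMP response element half-site (TGACG), STAT half-sites with 3 bases (TTCNNNGAA) or with 4 bases between them, the E-box (CACGTG), the AP-1 site (TGACTCA) and the ETS core (CCGGAAGT). Mmd2, Kif26b and Il13ra1 each held a GC box and a CCAAT box, which 32.7% and 33.8% of 32817 promoter windows of the same length also held. In Il13ra1, 1 GC box overlapped the CCAAT box. Gskip held neither, and held the cAMP response element half-site 60 bases before its start, as did 17.7% of windows. Kif26b held the STAT half-sites with 3 bases between them, as did 7.01% of windows. These matches describe letters in the windows and are not evidence of bound sites. Gskip and Atg2b, which encodes an autophagy protein, start on opposite strands, and the 110 bases between their starts are common to both windows.

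Total counts per liver ranged from 14892122 to 23480492, with a median of 16807340. Levels are given as CPM, the counts of a gene scaled to a common library total, after normalization by edgeR's trimmed mean of M values (TMM), and log2 fold changes are from edgeR's quasi-likelihood fit of 1 mean per group to all 34 livers. A gene was called where its adjusted p was below 0.05 and its log2 fold change exceeded 1 in either direction. CPM is not corrected for gene length, so levels are compared between groups for 1 gene and not between genes. In whole liver, fewer cells of a type and less RNA per cell cannot be told apart. Liver Sirt1, which the deletion does not target, was 8.35 to 15.7 CPM in WT livers and 9.48 to 16.3 CPM in SIRT1intKO livers at 0 hours, and 8.80 to 23.1 CPM (median 11.3) and 6.92 to 13.5 CPM (median 7.87) at 24 hours. On the first principal component of all tested genes (40.7% of the variance), 3 livers at 24 hours stood apart from the rest of their time point. SIRT1intKO replicate 5 scored 8.10 and WT replicates 3 and 4 scored -8.02 and -17.6, whereas the other 8 livers scored between 49.7 and 95.9. For the 5 genes, differences between genotypes and interactions at 24 hours are therefore also given without these 3 livers, a choice made after seeing the data. Without them, replicates 1 and 2 were the only WT livers at 24 hours. The 3 livers were left out because they deviated, so larger values or more calls without them are only a description. Results for the gene lists, markers, patterns and neighbors are given with all livers only.

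Gskip was flat in WT livers over the time course and stood above every other group only in SIRT1intKO livers at 24 hours. In WT livers it ranged from 6.03 to 8.78 CPM around a median of 6.76 at 0 hours and from 5.98 to 8.83 CPM around a median of 7.15 at 6 hours. At 24 hours the 4 WT livers had 6.39, 5.26, 6.86 and 7.27 CPM. SIRT1intKO livers ranged from 5.83 to 7.69 CPM around a median of 6.47 at 0 hours, within the range of values seen in WT livers. At 6 hours the 5 SIRT1intKO livers had 7.63, 7.82, 5.91, 7.89 and 8.80 CPM. At 24 hours the 7 SIRT1intKO livers ranged from 9.01 to 23.9 CPM around a median of 15.5, so that the lowest lay above the highest liver of every other group. Between the other 5 groups, neighbors in the order of medians overlapped.

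**Figure D1:**
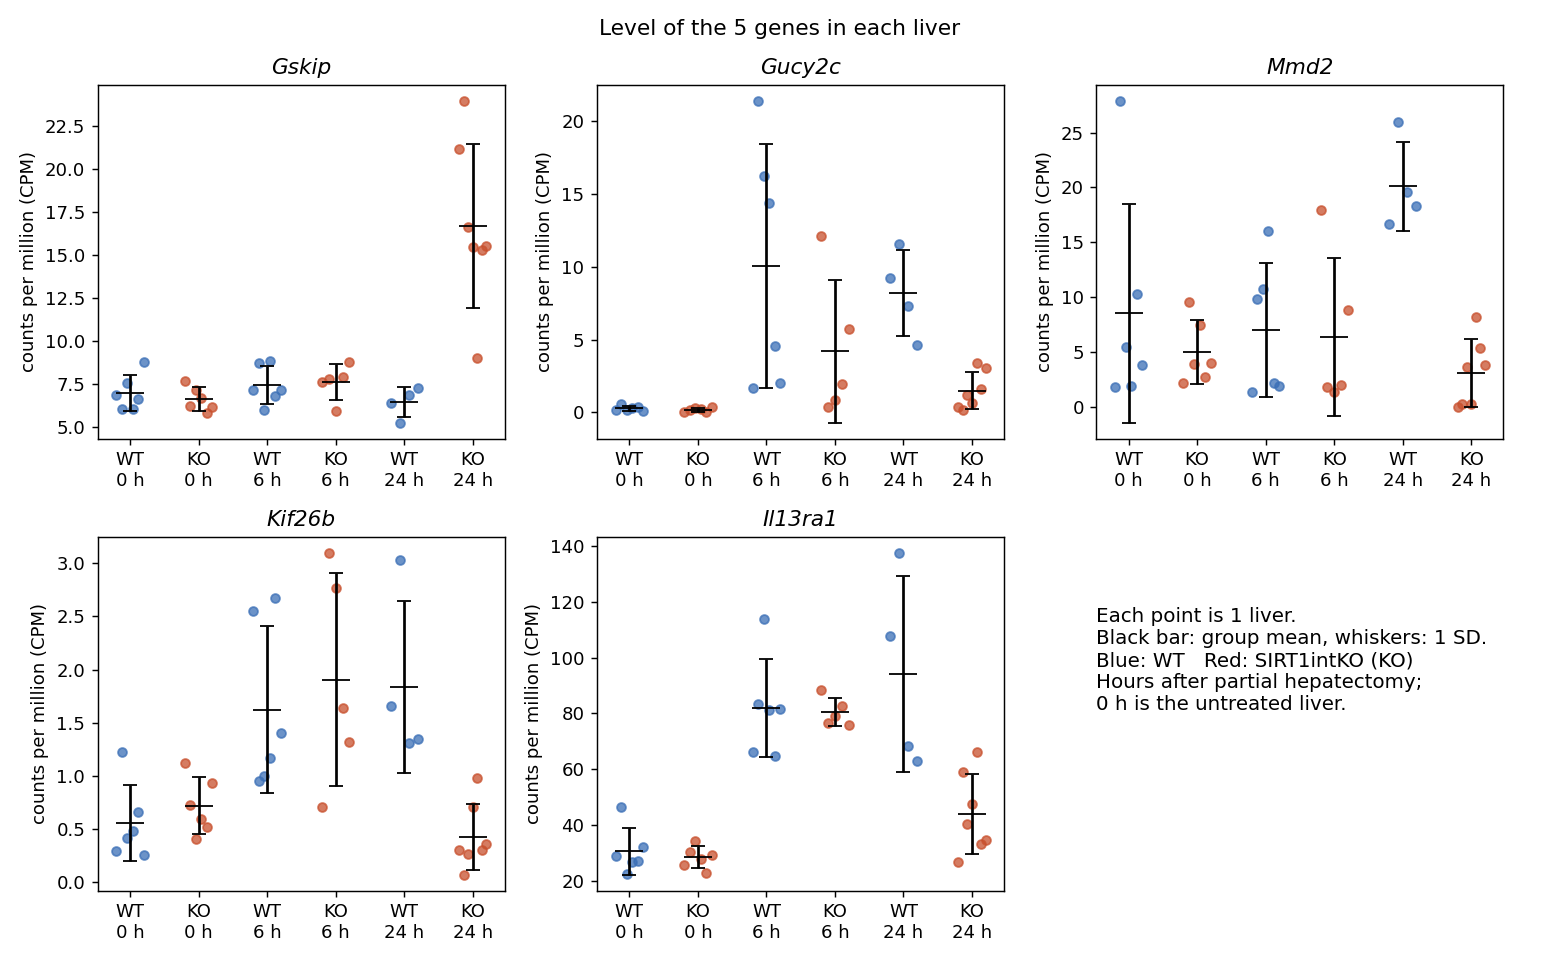
CPM of each gene (vertical axes) in each liver (points) by genotype and hours after PHx (horizontal axes), with the group mean and 1 SD. At 24 hours the SIRT1intKO livers lie at 9.01 to 23.9 CPM for Gskip, above all others, and below the WT livers for Gucy2c, Mmd2 and Kif26b, whereas for Il13ra1 the 24-hour groups overlap.

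Gucy2c was almost silent in untreated livers and appeared after PHx in both genotypes. At 0 hours it ranged from 0.0641 to 0.562 CPM around a median of 0.225 in WT livers and from 0 to 0.373 CPM around a median of 0.198 in SIRT1intKO livers, which is at most 11 reads in a liver. SIRT1intKO replicate 5 had no read, which allows up to 0.197 CPM (3 reads, counting error only). At 6 hours the WT livers ranged from 1.68 to 21.4 CPM around a median of 9.49. The 5 SIRT1intKO livers had 12.1, 0.352, 0.818, 1.94 and 5.75 CPM at that time, so the genotypes overlapped over most of their ranges. At 24 hours the WT livers had 9.22, 11.6, 7.33 and 4.63 CPM. The 7 SIRT1intKO livers ranged from 0.147 to 3.38 CPM around a median of 1.22, all below the lowest WT liver. In the order of medians, every group overlapped its neighbor.

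Mmd2 was high in every WT liver at 24 hours, and at 0 hours 1 WT liver lay far above the others. At 0 hours it ranged from 1.85 to 27.9 CPM around a median of 4.62 in WT livers, with the highest value in replicate 2, and from 2.13 to 9.53 CPM around a median of 3.96 in SIRT1intKO livers. At 6 hours it ranged from 1.39 to 16.01 CPM around a median of 6.01 in WT livers. The 5 SIRT1intKO livers had 17.96, 1.76, 1.32, 1.94 and 8.80 CPM at 6 hours, which overlapped the WT livers. At 24 hours the WT livers had 16.7, 25.9, 19.6 and 18.3 CPM. The 7 SIRT1intKO livers ranged from 0 to 8.21 CPM around a median of 3.67. Replicate 1 had no read, which allows up to 0.181 CPM, and replicates 2 and 4 had 0.220 and 0.217 CPM. Those 3 livers lay below every liver of every other group, and WT livers at 24 hours lay above the 6-hour WT livers, the next group in order of medians. The remaining neighbors overlapped.

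Kif26b was measured on the fewest reads, between 1 and 53 in a liver, so single values are coarse. At 0 hours it ranged from 0.256 to 1.23 CPM around a median of 0.452 in WT livers and from 0.409 to 1.12 CPM around a median of 0.660 in SIRT1intKO livers. At 6 hours WT livers ranged from 0.957 to 2.68 CPM around a median of 1.28. The 5 SIRT1intKO livers had 0.705, 3.10, 2.77, 1.64 and 1.32 CPM at 6 hours, which spanned the WT range. At 24 hours the WT livers had 1.66, 3.03, 1.31 and 1.34 CPM, near their 6-hour level. The 7 SIRT1intKO livers ranged from 0.0734 to 0.985 CPM around a median of 0.305, all below the lowest WT liver and the lowest median of the 6 groups. All neighbors in the order of medians overlapped.

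Il13ra1 was measured on at least 350 reads in every liver. At 0 hours it ranged from 22.6 to 46.6 CPM around a median of 27.9 in WT livers and from 22.9 to 34.4 CPM around a median of 28.5 in SIRT1intKO livers. At 6 hours WT livers ranged from 64.7 to 114 CPM around a median of 81.6. The 5 SIRT1intKO livers had 88.3, 76.6, 79.2, 82.8 and 75.8 CPM, inside the WT range. At 24 hours WT replicates 1 and 2 had 108 and 138 CPM and replicates 3 and 4 had 68.3 and 62.8 CPM. The 7 SIRT1intKO livers ranged from 26.9 to 66.0 CPM around a median of 40.4, and only the highest, replicate 5, exceeded the lowest WT liver. In the order of medians, SIRT1intKO livers at 24 hours lay below SIRT1intKO livers at 6 hours with no overlap, and the other neighbors overlapped.

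The response at 6 hours did not enter the choice of the genes, although it shares the 0-hour livers with the 24-hour response that did. Gucy2c, Kif26b and Il13ra1 rose by 6 hours in both genotypes, and Gskip and Mmd2 did not pass the test in either. Of all genes tested, 7.17% were called higher at 6 hours in WT livers and 7.86% in SIRT1intKO livers, against 3 of the 5 genes in each genotype. The shared 0-hour livers helped choose the genes, so nothing is read from this count. Gucy2c was 35.1-fold higher in WT livers (log2 fold change 5.14, SE 0.82, edgeR adjusted p = 1.12e-05) and 22.2-fold higher in SIRT1intKO livers (4.47, SE 0.88, adjusted p = 0.000199). In SIRT1intKO livers, replicate 2 at 6 hours (0.352 CPM) lay within the untreated range of 0 to 0.373 CPM. Leaving out each liver in turn, the log2 fold change of Gucy2c in that genotype was 3.53 to 4.805 and stayed called. Kif26b was 2.85-fold higher in WT livers (1.51, SE 0.43, adjusted p = 0.00667) and 2.62-fold higher in SIRT1intKO livers (1.39, SE 0.44, adjusted p = 0.0130). Without SIRT1intKO replicate 2 at 6 hours, the Kif26b call in that genotype was lost (1.12, adjusted p = 0.0620). Values of Kif26b at 0 and 6 hours overlapped in both genotypes. Il13ra1 was 2.67-fold higher in WT livers (1.41, SE 0.20, adjusted p = 2.31e-06) and 2.83-fold higher in SIRT1intKO livers (1.501, SE 0.21, adjusted p = 2.01e-06). The log2 fold changes of Gskip were 0.09 (95% interval -0.23 to 0.41) in WT livers and 0.20 (-0.14 to 0.54) in SIRT1intKO livers. Those of Mmd2 were -0.28 (-1.84 to 1.28) and 0.36 (-1.31 to 2.02), and without WT replicate 2 at 0 hours the first was 0.60.

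**Figure D2:**
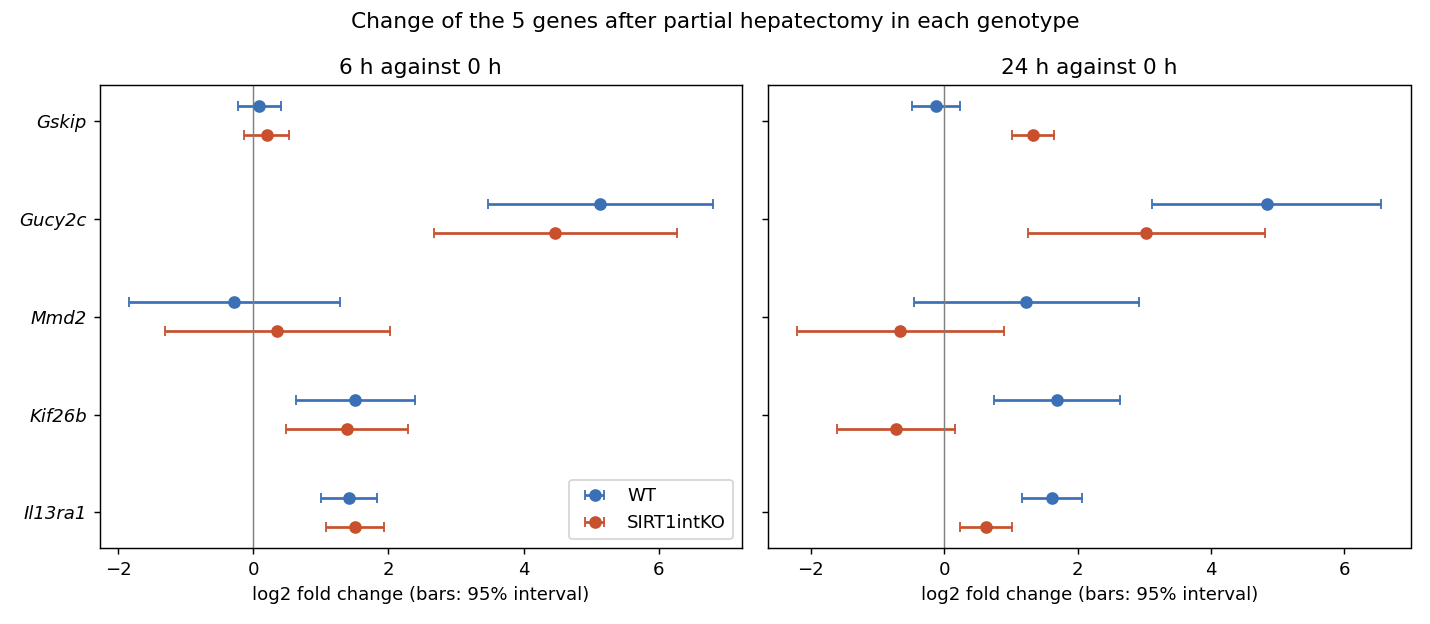
Log2 fold change (horizontal axes, with 95% intervals) of each gene (vertical axis) at 6 hours (left) and 24 hours (right) against 0 hours in WT (blue) and SIRT1intKO (red) livers. At 6 hours the intervals of the genotypes overlap for all 5 genes, from 0.09 and 0.20 for Gskip to 5.14 and 4.47 for Gucy2c, and at 24 hours those of Gskip, Kif26b and Il13ra1 do not.

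Between genotypes at 6 hours, no difference was called for these genes. With edgeR, 0% of all genes were called at 6 hours, although 976 had an unadjusted p under 0.05, and DESeq2 called 7 genes, none of them among the 5. The log2 fold change of SIRT1intKO against WT livers was 0.03 (95% interval -0.30 to 0.37) for Gskip and -0.02 (-0.45 to 0.40) for Il13ra1. It was -1.26 (-2.64 to 0.11, edgeR adjusted p = 0.770) for Gucy2c, -0.15 (-1.80 to 1.51) for Mmd2 and 0.23 (-0.63 to 1.09) for Kif26b, so for these 3 genes differences of over 2-fold lay within the interval. The interaction at 6 hours, which is the difference between genotypes in the change from 0 hours, was likewise called for 0% of genes by edgeR, with 457 at an unadjusted p under 0.05 and 2 called by DESeq2. For the 5 genes it lay between -0.67 (95% interval -3.38 to 2.05) for Gucy2c and 0.64 (-1.64 to 2.92) for Mmd2. At 0 hours the log2 fold change of SIRT1intKO against WT livers was -0.08 (-0.40 to 0.25) for Gskip, -0.60 (-2.76 to 1.57) for Gucy2c, -0.78 (-2.37 to 0.80) for Mmd2, 0.35 (-0.56 to 1.27) for Kif26b and -0.11 (-0.52 to 0.30) for Il13ra1.

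The values at 24 hours chose the genes and are given as a description with no test. In SIRT1intKO against WT livers, the log2 fold change was 1.37 (95% interval 1.01 to 1.73) for Gskip, which is 2.58-fold higher. It was -2.40 (-3.78 to -1.02) for Gucy2c, -2.67 (-4.33 to -1.02) for Mmd2, -2.06 (-2.97 to -1.15) for Kif26b and -1.10 (-1.52 to -0.67) for Il13ra1, which is 5.27-fold, 6.38-fold, 4.16-fold and 2.14-fold lower. All 5 were called in this comparison, where 1.38% of genes were called higher and 1.3% lower in SIRT1intKO livers, but the choice of the genes fixed this in advance and the calls support nothing. When only the 24-hour groups were fitted, none of the 5 was called, nor was any other gene. The call of Mmd2 was lost on leaving out any 1 of 9 of the 11 livers (all but WT replicate 1 and SIRT1intKO replicate 5), that of Gucy2c without WT replicate 2 or SIRT1intKO replicate 1, 2, 3, 4 or 6, and that of Il13ra1 without WT replicate 2. Values of the genotypes did not overlap for 4 of the 5 genes, Il13ra1 being the exception, as for 0.915% of all genes on the side higher in SIRT1intKO livers and 1.05% on the lower side, and this too was fixed by the choice. Without the 3 livers that stood apart, the log2 fold changes were 1.64 for Gskip, -3.03 for Gucy2c, -3.17 for Mmd2, -2.74 for Kif26b and -1.59 for Il13ra1.

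**Figure D3:**
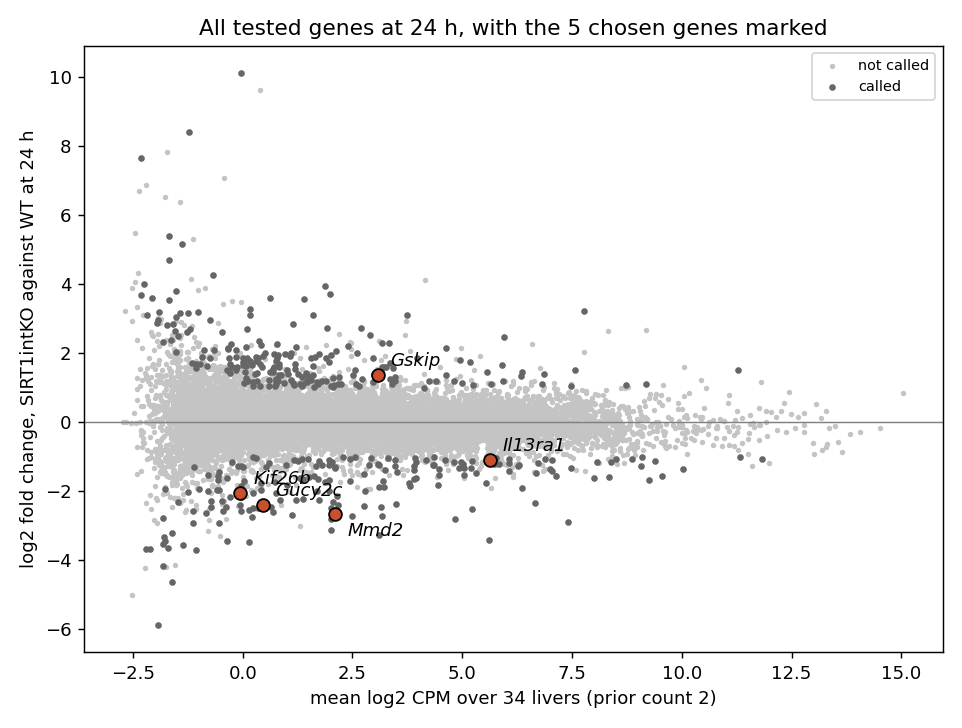
Log2 fold change of SIRT1intKO against WT livers at 24 hours (vertical axis) over the mean log2 CPM of all 34 livers (horizontal axis) for all 14980 tested genes, with the 5 chosen genes in red and the 402 called genes in dark grey. Gskip lies at 1.37 and the other 4 between -2.67 and -1.10, inside the cloud of called genes.

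The change from 0 to 24 hours in each genotype also entered the choice, so its values and calls are a description. Against 0 hours, Gskip had a log2 fold change of -0.12 (95% interval -0.48 to 0.24) in WT livers and 1.33 (1.02 to 1.64) in SIRT1intKO livers. Gucy2c had 4.83 (3.11 to 6.55) and 3.03 (1.26 to 4.805). In SIRT1intKO livers, replicates 1 and 2 at 24 hours (0.361 and 0.147 CPM) lay within the untreated range of 0 to 0.373 CPM. Mmd2 had 1.23 (-0.46 to 2.92) and -0.66 (-2.20 to 0.89), and both intervals included 0. Kif26b had 1.69 (0.74 to 2.64) and -0.72 (-1.61 to 0.16). Il13ra1 had 1.62 (1.17 to 2.06) and 0.63 (0.23 to 1.02). Of the 5, 3 were called higher in WT livers, where 8.32% of genes were called higher and 7.4% lower, and Gskip and Gucy2c in SIRT1intKO livers, where 11.9% were called higher and 11.1% lower, and nothing is read from these counts. The interaction at 24 hours was 1.44 (0.97 to 1.92) for Gskip, the single gene called (0.00668% of those tested), which restates the difference for which it was chosen. Without WT replicate 2 at 24 hours it was 1.355 and no gene was called, and Kif26b was no longer called from 0 to 24 hours in WT livers (1.34). It was -1.80 (-4.53 to 0.93) for Gucy2c, -1.89 (-4.18 to 0.40) for Mmd2, -2.41 (-3.71 to -1.11) for Kif26b and -0.99 (-1.58 to -0.39) for Il13ra1. Without the 3 livers that stood apart, 626 genes were called for the interaction, with only replicates 1 and 2 as WT livers at 24 hours. The values were then 1.705 for Gskip, -2.435 for Gucy2c, -2.40 for Mmd2, -3.10 for Kif26b and -1.49 for Il13ra1. The change of Kif26b from 0 to 24 hours in SIRT1intKO livers was then -1.02, past the thresholds.

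Among the SIRT1intKO livers at 24 hours, the same animal lay nearest to the WT livers for every gene. Replicate 5 had the lowest Gskip (9.01 CPM) and the highest Gucy2c (3.38 CPM), Mmd2 (8.21 CPM), Kif26b (0.985 CPM) and Il13ra1 (66.0 CPM) of the 7. Replicate 2 lay at the other end for Gskip (23.9 CPM), Gucy2c (0.147 CPM) and Kif26b (0.0734 CPM), whereas replicate 1 was lowest for Mmd2 and Il13ra1 (26.9 CPM). WT replicates 3 and 4, which stood apart with SIRT1intKO replicate 5, had the lowest Gucy2c, Kif26b and Il13ra1 of the WT livers and the highest Gskip. Mmd2 did not follow this order, since WT replicate 1 had its lowest value.

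**Figure D4:**
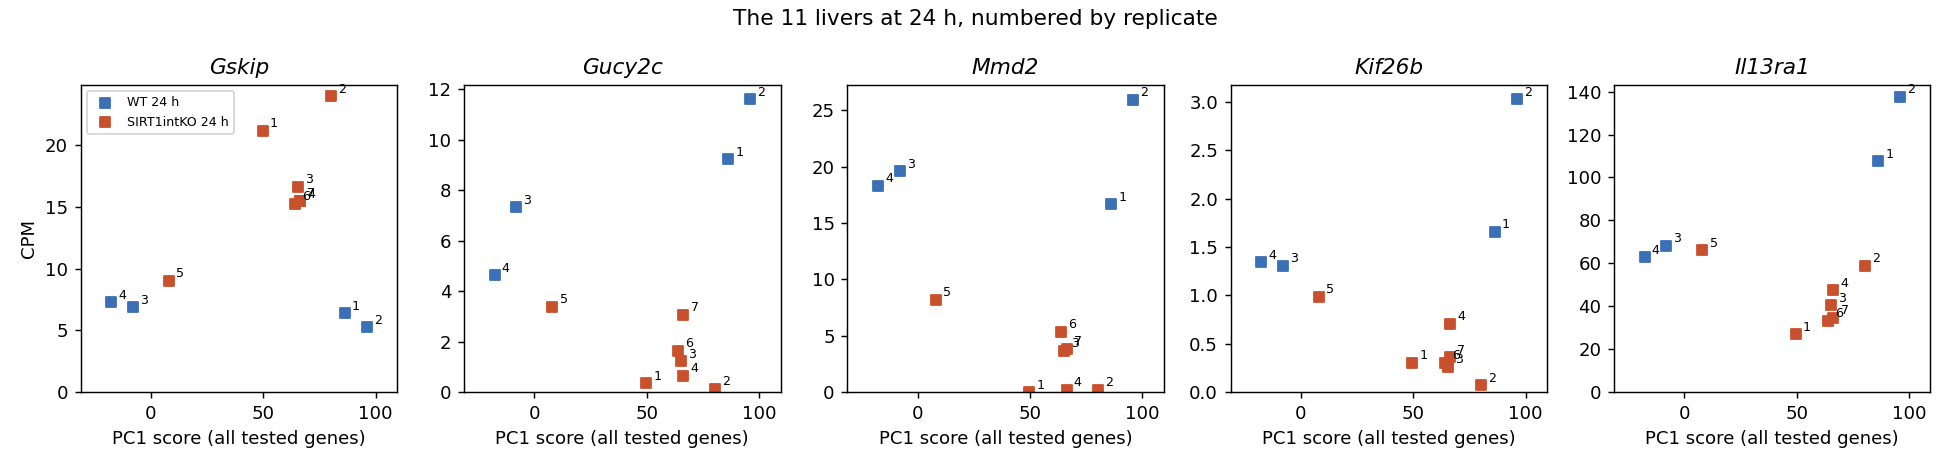
CPM (vertical axes, from 0) of each gene over the score on the first principal component of all tested genes (horizontal axes) for the 4 WT (blue) and 7 SIRT1intKO (red) livers at 24 hours, numbered by replicate. Of the SIRT1intKO livers, replicate 5 (score 8.10) lies nearest the WT livers on the CPM axis of each panel. On the score axis, WT replicates 1 and 2 lie at 86.2 and 95.9 and WT replicates 3 and 4 at -8.02 and -17.6.

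In livers at 6 hours, Gucy2c and Mmd2 were high in the same animals. Among WT livers at 6 hours, replicates 2, 3 and 4 had 21.4, 16.3 and 14.4 CPM of Gucy2c and 9.87, 10.7 and 16.01 CPM of Mmd2. Replicates 1, 5 and 6 had 1.68, 4.57 and 2.02 CPM of Gucy2c and 1.39, 2.16 and 1.87 CPM of Mmd2, so the livers fell into a high and a low cluster for both genes and no pooled correlation is given. Among SIRT1intKO livers at 6 hours, replicates 1 and 5 were the highest for both genes and were the 2 lowest for Kif26b. In the 7 SIRT1intKO livers at 24 hours, log2 CPM of Gucy2c and Mmd2 correlated with r = 0.88 and rho = 0.86 (exact permutation p = 0.0137 and 0.0238, adjusted p = 0.149 and 0.195), and r was 0.83 without the 2 livers farthest from the median of Gucy2c. Gskip and Gucy2c gave negative values (r = -0.84, rho = -0.82, exact permutation p = 0.0119 and 0.0341, adjusted p = 0.149 and 0.195). Here r was -0.72 without the 2 livers farthest from the median of Gskip. At 0 hours, Gskip and Gucy2c gave r = -0.87 in WT livers and r = 0.12 in SIRT1intKO livers. At 0 hours, Gucy2c and Mmd2 gave r = 0.68 and rho = 0.71 in the 6 WT livers (exact permutation p = 0.126 and 0.136, adjusted p = 0.337 and 0.389). In the 6 SIRT1intKO livers they gave r = 0.46 and rho = 0.43 (exact permutation p = 0.343 and 0.419, adjusted p = 0.677 and 0.839), and r turned to -0.82 without the 2 livers farthest from the median of Gucy2c. Of 40 such relations, over 10 pairs of genes in the 4 groups with at least 6 livers, none passed the Benjamini-Hochberg adjustment. The smallest p was for Gucy2c and Kif26b in WT livers at 0 hours (r = 0.94, rho = 1, exact permutation p = 0.00417 and 0.00278, adjusted p = 0.149 and 0.111). In SIRT1intKO livers at 0 hours that pair gave r = -0.05. Livers at 0 and 24 hours entered the choice of the genes, so nothing is read from these p-values.

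**Figure D5:**
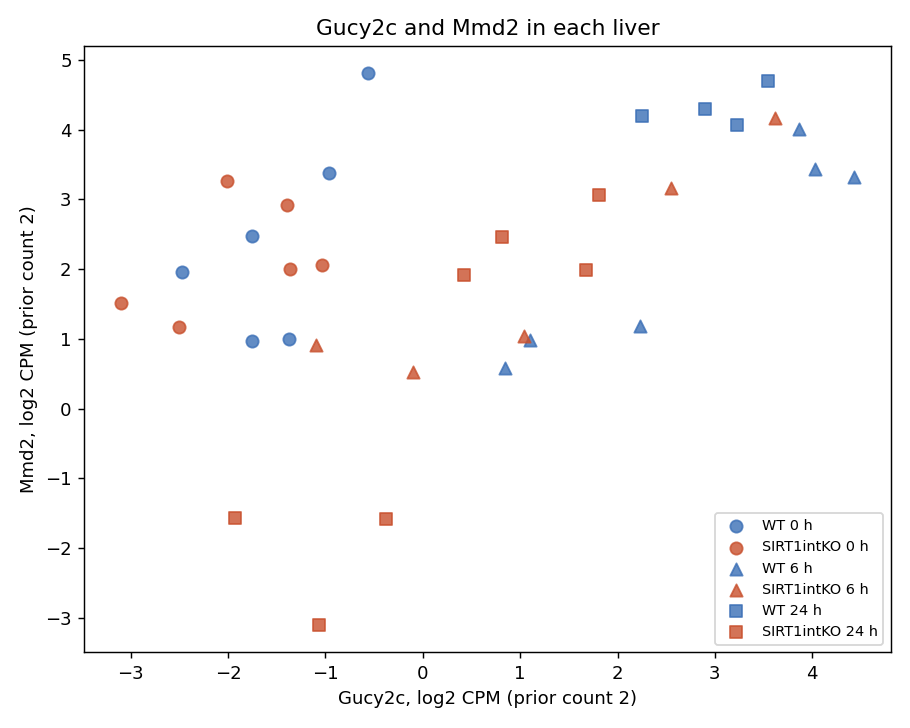
Log2 CPM of Mmd2 (vertical axis) over that of Gucy2c (horizontal axis) in each of the 34 livers, with color for genotype and shape for hours after PHx. The 6-hour livers run from low values of both genes to high values of both, and 3 SIRT1intKO livers at 24 hours lie lowest for Mmd2, at 0 to 0.220 CPM.

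The partners of Gskip showed no call between genotypes at 24 hours, where 1.38% of all genes were called higher and 1.3% lower. For so few genes nothing is read from this count. All 13 listed genes were tested, comprising both GSK3 kinases, subunits of protein kinase A, Axin scaffolds, beta-catenin and the Frat proteins that bind GSK3, and their median log2 fold change was -0.22, against -0.02 over all genes. Gsk3b, the kinase that Gskip binds, had -0.61 (edgeR adjusted p = 0.0590), and Frat1 had -0.78 (adjusted p = 0.0183), which did not reach the fold threshold. From 0 to 24 hours, 0 of 13 were called in WT livers, against 8.32% of all genes called higher and 7.4% lower. In SIRT1intKO livers 1 was called higher and 1 lower, against 11.9% and 11.1% of all genes. Prkar2b, a regulatory subunit of protein kinase A, rose (1.57, adjusted p = 0.0101) and Axin2, a target of Wnt signaling, fell (-1.04, adjusted p = 0.0366).

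The ligands of guanylate cyclase C were at or near 0 in these livers. Guca2a (guanylin) had at most 1 read, in 1 of 34 livers, and Guca2b (uroguanylin) at most 2 reads, in 2 livers. Slc9a3, an intestinal sodium exchanger, had reads in 1 liver, and Cftr, the chloride channel that cyclic GMP signaling opens, had at most 12 reads. Of 13 listed genes, 8 were tested, and none was called between genotypes at 24 hours (median log2 fold change 0.07). In that comparison 1.38% of all genes were called higher and 1.3% lower, so nothing is read from this count. In both genotypes at 24 hours, Npr2, a cyclase that binds C-type natriuretic peptide, fell (-1.89, adjusted p = 0.000179 in WT and -1.75, adjusted p = 1.26e-05 in SIRT1intKO livers), as did Pde9a, which degrades cyclic GMP (-1.13, adjusted p = 0.000408 and -1.53, adjusted p = 2.44e-07). Pde2a had reads in 29 of the 34 livers, with medians of 14.6 and 0 CPM at 0 and 24 hours in WT livers (adjusted p = 0.0198) and of 16.8 and 5.53 CPM in SIRT1intKO livers (adjusted p = 0.125). Because of the livers with no read its fold is not given, and its interaction at 24 hours had an adjusted p of 0.551. Of the 8 genes, 3 were called lower in WT livers, against 7.4% of all genes, and 2 in SIRT1intKO livers, against 11.1%.

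Of the other members of the Mmd2 family, 8 of 10 were tested and 1 was called between genotypes at 24 hours, lower in SIRT1intKO livers as were 1.3% of all genes. Paqr9, which like Mmd2 was lower in SIRT1intKO livers, had a median of 162 CPM in WT and 35.7 CPM in SIRT1intKO livers (log2 fold change -1.55, edgeR adjusted p = 0.0450). This call was lost when only the 24-hour groups were fitted. Mmd, the nearest relative of Mmd2, had -0.23 (adjusted p = 0.694), and the median of the 8 was -0.16. Adiponectin receptor Adipor2 fell from 0 to 24 hours in SIRT1intKO livers (-1.10, adjusted p = 0.000480) and had -0.70 (adjusted p = 0.0618) in WT livers. Paqr7 fell in WT livers (-1.27, adjusted p = 0.0125) and had -0.89 (adjusted p = 0.0213) in SIRT1intKO livers, under the fold threshold. Paqr3 rose by 6 hours in both genotypes (1.01, adjusted p = 0.0124 in WT and 1.10, adjusted p = 0.00827 in SIRT1intKO livers).

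In the Wnt5a and Ror pathway of Kif26b, the ligand rose in both genotypes. Wnt5a was called higher at 6 hours (log2 fold change 1.37, edgeR adjusted p = 0.00879 in WT and 1.62, adjusted p = 0.00335 in SIRT1intKO livers) and at 24 hours (1.53, adjusted p = 0.00798 and 1.59, adjusted p = 0.00154). The receptor Ror1 rose by 6 hours (1.08, adjusted p = 0.0133 and 1.26, adjusted p = 0.00611) and at 24 hours had 0.81 (adjusted p = 0.0928) and 0.60 (adjusted p = 0.133). Vangl1, a planar polarity protein, rose by 24 hours in WT livers (1.17, adjusted p = 6.88e-06) and had 0.83 (adjusted p = 3.63e-05) in SIRT1intKO livers. Ror2 and the second ligand Wnt11 had at most 7 and 6 reads in a liver and were not tested. Of 14 listed genes 11 were tested, and none was called between genotypes at 24 hours, where Wnt5a had -0.06 (adjusted p = 0.948), Fzd5 -0.03, Fzd7 -0.42, Ryk -0.09 and the median was -0.13. In that comparison 1.38% of all genes were called higher and 1.3% lower, so nothing is read from this count.

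The ligands of the receptor that Il13ra1 forms were at 0, since Il4 and Il13 had no read in any of the 34 livers. Its partner chain Il4ra had a log2 fold change of -0.22 between genotypes at 24 hours (edgeR adjusted p = 0.530), with medians of 46.5 CPM in WT and 45.1 CPM in SIRT1intKO livers. The decoy receptor Il13ra2 had at most 16 reads and was not tested. Of 13 listed genes 10 were tested, and 1 was called between genotypes at 24 hours, on the side where 1.38% of all genes were. This was Il2rg, the common gamma chain of lymphoid cytokine receptors, which was higher in SIRT1intKO livers (1.05, adjusted p = 0.0485). Its call was lost when only the 24-hour groups were fitted. Stat6 had 0.11 (adjusted p = 0.595), and Stat3 had -0.73 (adjusted p = 0.0206), under the fold threshold. From 0 to 24 hours in WT livers, 4 of 10 were called higher, against 8.32% of all genes, namely Socs1 (3.65, adjusted p = 0.00174), Socs3 (1.65, adjusted p = 0.0245), Stat3 (1.16, adjusted p = 3.85e-05) and Jak3 (1.10, adjusted p = 0.000117), and the median of the 10 was 0.80, against 0.02 over all genes. In SIRT1intKO livers 1 of 10 was called higher, near the 11.9% of all genes, namely Socs1 (2.24, adjusted p = 0.0242), with a median of the 10 of 0.59 against 0.04. None of the 10 passed the test of the interaction at 24 hours, where 0.00668% of all genes were called.

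Some markers of other cell types differed between genotypes at 24 hours, and their part in the results was not tested. The calls below come from the fit of all 34 livers, and no gene was called when only the 24-hour groups were fitted. Of 5 monocyte and macrophage markers, 2 were called higher in SIRT1intKO livers, against 1.38% of all genes, Lyz2 (log2 fold change 1.73, edgeR adjusted p = 0.00950) and Ccr2 (1.59, adjusted p = 0.0147), and the summed level of the list was 42.0 to 203 CPM against 32.7 to 59.3 CPM in WT livers. Of 6 Kupffer cell markers, Marco was called higher (2.28, adjusted p = 0.0180), with medians of 55.3 CPM in SIRT1intKO and 15.4 CPM in WT livers. The other 5 were not called. Clec4f had -0.08, whereas Vsig4, Timd4, Cd5l and Adgre1 had 1.00, 1.42, 0.48 and 0.70. The summed level of the list, to which Marco contributed much, was 77.8 to 278 CPM against 19.02 to 97.2 CPM. None of the 4 tested neutrophil markers was called, with sums of 17.2 to 925 CPM against 4.78 to 97.0 CPM, and none of the 6 hepatocyte markers, with sums of 43178 to 83727 CPM against 43666 to 60473 CPM. None of the tested markers of sinusoidal endothelium (5), stellate cells (6), cholangiocytes (5) and lymphocytes (2) was called. With 1.38% of all genes called higher and 1.3% lower, nothing is read from lists with no call. Because Gucy2c is known from the gut, markers of intestinal epithelium were examined. Cdx1, Cdx2 and Sis had no read in any liver, and Vil1, Muc2 and Olfm4 had at most 21, 5 and 60 reads. The summed level of the 8 markers was 43.6 to 308 CPM (median 69.6) in SIRT1intKO livers and 23.9 to 52.1 CPM (median 36.6) in WT livers at 24 hours. Nearly all of it was Fabp2, with medians of 66.8 and 36.05 CPM, which had 37.2 and 38.2 CPM in untreated SIRT1intKO and WT livers. Of the 2 tested, Fabp2, a fatty acid binding protein, was called higher in SIRT1intKO livers (1.46, adjusted p = 0.0280). Krt20 had reads in 8 of the 34 livers and a median of 0.705 CPM in SIRT1intKO livers at 24 hours and of 0 in each other group (adjusted p = 0.0695).

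The genes whose log2 CPM followed each of the 5 most closely over the 34 livers are given as a description with no p, since the livers share their genotypes and time course. For Gskip they were Eif2d, a translation initiation factor (r = 0.89), Ccl7, a monocyte chemokine (r = 0.84), and Duox2, an oxidase that makes hydrogen peroxide (r = 0.83). Eif2d had medians of 26.2 to 28.7 CPM in the other 5 groups and 46.5 CPM in SIRT1intKO livers at 24 hours. Ccl7 and Duox2 had medians of at most 0.298 and 0.0328 CPM in those groups and 6.59 and 3.67 CPM in SIRT1intKO livers at 24 hours. By rank correlation none of the 3 was among the closest genes, which were Slc18a1, Ccng1 and Lyrm2 (rho = 0.67 to 0.64). For Gucy2c they were Cyp17a1, a steroid hydroxylase (r = 0.92), Slc41a3, a magnesium transporter (r = 0.91), and Reg3b, an antibacterial lectin (r = 0.89). Reg3b had a median of 0 CPM in both genotypes at 0 hours, 3.13 and 3.70 CPM at 6 hours in WT and SIRT1intKO livers, and 7.26 and 0.753 CPM at 24 hours.

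For Mmd2 the closest genes were Aldh1b1, a mitochondrial aldehyde dehydrogenase (r = 0.76), the receptor Notch3 (r = 0.75) and Slc3a1, a subunit of an amino acid transporter (r = 0.74). None of these 3 was called between genotypes at 24 hours, with edgeR adjusted p of 0.224, 0.271 and 0.0598. For Kif26b they were Cactin, Prg4 (lubricin) and Capn15 (r = 0.83, 0.81 and 0.81). By rank correlation 1 of the 3 genes was kept for Mmd2 (Aldh1b1) and 1 for Kif26b (Prg4), and 2 each for Gucy2c and Il13ra1. For Il13ra1 they were Fgg, a chain of fibrinogen (r = 0.93), Sdsl (r = 0.92) and Slc41a2 (r = 0.91). Fgg had medians of 5178 and 5287 CPM at 0 hours, 17146 and 17432 CPM at 6 hours, and 14737 and 9793 CPM at 24 hours in WT and SIRT1intKO livers.

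None of the tested genes next to the 5 was called between genotypes at 24 hours. Of all genes tested, 1.38% were called higher and 1.3% lower, so for so few neighbors nothing is read from this. In the order of protein-coding genes in RefSeq (GRCm38.p6), 6 of the 10 nearest neighbors were tested. Atg2b, which shares a promoter region with Gskip, had medians of 20.03 CPM in WT and 19.5 CPM in SIRT1intKO livers (log2 fold change -0.13, edgeR adjusted p = 0.522). Plbd1 beside Gucy2c had 0.04 (adjusted p = 0.939), Wipi2 beside Mmd2 -0.02 (adjusted p = 0.921), and Dock11 beside Il13ra1 0.30 (adjusted p = 0.728). Efcab2 and Smyd3, on either side of Kif26b, had -0.34 (adjusted p = 0.381) and -0.04 (adjusted p = 0.928). The neighbors Ak7, H4f16, Radil and Zcchc12 had too few reads to test.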

How the data were processed

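Liver poly(A) RNA of 34 mice was sequenced as stranded libraries on a NovaSeq X. The authors deposited expected counts per gene from the nf-core RNA-seq pipeline, with STAR and Salmon on GRCm39 by the submitters' processing notes, not normalized for depth or length. They were rounded here, as 4.97% were not whole. Of 35 columns, 1 matched the labels of no liver and was not used. The study describes more WT livers at 24 hours than the labels give, and the labels do not show whether this column is one of them. The letter x, missing from the gene symbols, was restored by gene identifier in 1255 symbols. Libraries of a group differed beyond counting noise (chi-square per gene at least 15.22).

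With edgeR 4.0.16 in R 4.3.3, counts were scaled by TMM, filtered with filterByExpr (14980 genes) and fitted by quasi-likelihood with 1 mean per genotype and time, and intervals were taken from the F statistic. P-values were Benjamini-Hochberg adjusted over all genes tested. Log2 CPM carries a prior count of 2, and genes compared in pattern had a mean of at least 1 CPM. The fits were tested on simulated data. Alternatives were DESeq2 1.42.0, its size factors in edgeR, a filter that kept all genes with any count, only the compared groups, a replicate block, and leaving out each liver.

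The 5 genes, the gene lists and the tests were chosen with earlier results of these data known. The text names the 5 genes, the ligands and receptors of the pathway lists and their genes called between genotypes at 24 hours, markers of the cell types, the 3 genes closest in pattern to each, and the nearest protein-coding genes on either side. Genes outside this rule (Sirt1, Gsk3b, Frat1, Prkar2b, Axin2, Npr2, Pde9a, Pde2a, Slc9a3, Cftr, Mmd, Adipor2, Paqr3, Paqr7, Vangl1, Slc18a1, Ccng1, Lyrm2, Stat6, Stat3, Socs1, Socs3 and Jak3) were named after their values were seen. RefSeq promoter windows (GRCm38.p6) matched 4 of the 5 genes.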

Additional observations from a re-analysis of the deposited data

Results flagged for a closer look

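Mmd2 had 27.9 CPM in WT replicate 2 at 0 hours, against 1.85 to 10.3 CPM in the other 5 livers of that group, a gap to the nearest liver of 0.676 of the whole range. It was the 1 value found far from the rest among 30 groups of livers examined for the 5 genes, where chance alone would flag about 1 group in 20. The rule was applied to CPM and not to log2 CPM, on which high values stand out less. The same liver was the highest of its group for Gucy2c (0.562 CPM), Kif26b (1.23 CPM) and Il13ra1 (46.6 CPM). Without it, the log2 fold change of Mmd2 between 0 and 6 hours in WT livers was 0.60 in place of -0.28, and that between genotypes at 0 hours was 0.10 in place of -0.78.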

How the results depend on the processing

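Of 870 values of the 5 genes recomputed under an alternative, 809 kept their direction and their side of the thresholds, 29 lost and 7 gained a call, and 25 changed sign. The causes were not tested. Of the 5 genes, the number called between genotypes at 24 hours (5) was 3 with the replicate block and 0 with only the compared groups fitted, and for all genes the count (402) was 168 and 0, and 1274 without the 3 livers that stood apart. The single gene called for the interaction at 24 hours, Gskip, was lost with the replicate block (0 genes of the 5 and 0 of all) and with only the compared groups fitted (0 of the 5). The count of the 5 was 2 with DESeq2, which called 96 genes in all, and 3 without the 3 livers, where 626 were called, and 8 genes were called with every gene of at least 1 count. Without those livers 4804 genes were called from 0 to 24 hours in WT livers (2354 with all). All counts without those livers rest on replicates 1 and 2 as the only WT livers at 24 hours. With only the compared groups fitted, 1 of the 5 was called from 0 to 24 hours in SIRT1intKO livers in place of 2. At 6 hours, DESeq2 called 7 genes between genotypes and 2 for the interaction, and 2 were called between genotypes with every gene of at least 1 count.

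Over all groups, same-numbered livers did not deviate together more than others (r over 0.1 in 6 of 76 pairs, against 56 of 403 pairs with other numbers). The number was therefore not used as a pairing, and pairing between single groups was not tested. With the replicate block, Mmd2 between genotypes at 6 hours was 0.027 in place of -0.15.

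Leaving out each liver in turn, 2 to 5 of the 5 genes and 232 to 815 genes were called between genotypes at 24 hours, 0 to 3 and 0 to 205 for the interaction, 1552 to 3117 genes from 0 to 24 hours in WT livers, and 0 to 7 genes between genotypes at 6 hours. The lowest counts of the 5 genes (2 and 0) and of WT genes (1552) came without WT replicate 2 at 24 hours, and the highest counts of all genes between genotypes and for the interaction (815 and 205) without SIRT1intKO replicate 5. The log2 fold changes that changed sign were those between genotypes at 0 hours, with ranges of -0.12 to 0.0024 for Gskip, -1.07 to 0.10 for Mmd2 and -0.18 to 0.049 for Il13ra1. At 6 hours they were -0.037 to 0.11 for Gskip, -1.04 to 0.27 for Mmd2, -0.018 to 0.43 for Kif26b and -0.092 to 0.085 for Il13ra1. From 0 to 6 hours Mmd2 ranged from -0.71 to 0.60 in WT and from -0.55 to 0.62 in SIRT1intKO livers. The interaction at 6 hours ranged from -0.26 to 1.05 for Mmd2, -0.53 to 0.072 for Kif26b and -0.073 to 0.19 for Il13ra1. Kif26b, with at most 53 reads, and Gucy2c at 0 hours, with at most 11, are limited by depth.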
